A study of Caenorhabditis elegans with 2 samples.

Results

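Of the 2717 regions of the EGL-18 series with an irreproducible discovery rate (IDR) of 0.05 or less, 617 (22.7%, 95% interval 21.1 to 24.3) had their summit in an exon of a protein-coding gene and outside every promoter window. They were selected on the score of the series-level ranked list, a score of 540 being the same as an IDR of 0.05, on peak signal, which decided between overlapping peaks, and on gene annotation. The promoter window covered the 1000 bp before and the 200 bp after each protein-coding transcript start. Of the other 2100 regions, 887 lay in promoter windows, 501 in introns of protein-coding genes and 712 outside such genes. The last are called intergenic here, though genes that code for no protein can lie among them. Score, signal and presence in the replicates belong to that choice and are described here without a test.

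The series measured by ChIP-seq where a tagged EGL-18 protein sits in whole *Caenorhabditis elegans* young adults. The strain was RW12252, in which a TY1::EGFP::3xFLAG tag was inserted by CRISPR into *egl-18* on chromosome IV, and precipitation was with an antibody against GFP. Worms were synchronised by bleaching and starvation in the first larval stage and were 63 hours old. All worms carried the tag, there was 1 group of 2 samples labelled biological replicates 1 and 2, and control libraries that the labels name were not analysed here. The worms were taken whole, so that peaks of different tissues cannot be told apart.

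EGL-18 is a GATA factor, a zinc finger protein of a family that binds the DNA sequence GATA, and it is known to keep the fate of epidermal seam cells and to act in forming the vulva. Sites of transcription factors are usually looked for in promoters, introns and intergenic sequence, while exons carry the code of the protein or the untranslated ends (UTRs) of the messenger RNA.

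Strong regions with a coding summit and no UTR are printed to show what kind of sequence an exonic peak covers. Those of *cyc-1*, *tba-1*, *kel-20* and *lmd-2*, with signals above the weakest printed here, are not shown. Sequences are those of WBcel235, the same assembly as ce11, written 5′ to 3′ on the strand of the gene. Capitals mark coding sequence and lower case bases outside it. The region of *dos-3*, whose product belongs to a family of Notch ligands, was at III:835859-836134 on the minus strand. That of *pks-1*, a polyketide synthase gene, was at X:5429386-5429661 on the plus strand. That of *H03A11.2* was at X:15228131-15228406 on the minus strand. That of *him-4*, which encodes the extracellular matrix protein hemicentin, was at X:9724493-9724768 on the plus strand. That of *unc-52*, which encodes the basement membrane protein perlecan, was at II:14656720-14656995 on the minus strand. That of *C42D8.9* was at X:5106342-5106617 on the minus strand.
dos-3: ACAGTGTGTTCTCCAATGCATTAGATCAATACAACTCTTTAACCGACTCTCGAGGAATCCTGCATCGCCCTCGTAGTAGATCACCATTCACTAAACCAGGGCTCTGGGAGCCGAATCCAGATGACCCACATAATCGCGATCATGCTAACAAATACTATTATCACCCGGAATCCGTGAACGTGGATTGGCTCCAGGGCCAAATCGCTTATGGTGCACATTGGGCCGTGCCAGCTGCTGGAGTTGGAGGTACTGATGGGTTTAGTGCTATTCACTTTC
pks-1: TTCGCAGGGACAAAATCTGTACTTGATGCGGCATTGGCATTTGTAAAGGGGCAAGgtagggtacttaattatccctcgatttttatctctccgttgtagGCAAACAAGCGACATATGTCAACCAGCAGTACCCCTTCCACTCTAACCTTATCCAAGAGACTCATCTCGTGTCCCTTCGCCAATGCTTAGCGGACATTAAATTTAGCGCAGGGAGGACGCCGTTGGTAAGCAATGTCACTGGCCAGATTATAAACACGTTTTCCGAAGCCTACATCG
H03A11.2: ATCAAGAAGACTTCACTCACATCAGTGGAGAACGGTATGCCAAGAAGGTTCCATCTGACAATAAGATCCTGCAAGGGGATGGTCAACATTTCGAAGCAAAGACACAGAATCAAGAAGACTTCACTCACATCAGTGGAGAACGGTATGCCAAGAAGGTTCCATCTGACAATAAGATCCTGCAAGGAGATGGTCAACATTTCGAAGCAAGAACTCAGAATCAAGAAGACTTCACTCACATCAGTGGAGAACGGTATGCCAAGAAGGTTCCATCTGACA
him-4: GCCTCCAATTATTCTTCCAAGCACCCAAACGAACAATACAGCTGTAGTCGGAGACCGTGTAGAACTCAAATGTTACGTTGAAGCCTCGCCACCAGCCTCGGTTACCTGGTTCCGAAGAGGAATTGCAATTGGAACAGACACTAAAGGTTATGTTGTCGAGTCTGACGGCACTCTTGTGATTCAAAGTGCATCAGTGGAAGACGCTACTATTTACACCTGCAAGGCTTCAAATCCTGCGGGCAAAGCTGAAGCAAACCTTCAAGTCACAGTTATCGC
unc-52: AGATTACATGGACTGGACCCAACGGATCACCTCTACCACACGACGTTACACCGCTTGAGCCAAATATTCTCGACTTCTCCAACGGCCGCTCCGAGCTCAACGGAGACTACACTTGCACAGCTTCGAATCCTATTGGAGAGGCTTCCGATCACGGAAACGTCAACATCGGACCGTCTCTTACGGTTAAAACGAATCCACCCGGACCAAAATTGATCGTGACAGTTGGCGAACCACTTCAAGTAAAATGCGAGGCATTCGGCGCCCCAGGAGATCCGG
C42D8.9: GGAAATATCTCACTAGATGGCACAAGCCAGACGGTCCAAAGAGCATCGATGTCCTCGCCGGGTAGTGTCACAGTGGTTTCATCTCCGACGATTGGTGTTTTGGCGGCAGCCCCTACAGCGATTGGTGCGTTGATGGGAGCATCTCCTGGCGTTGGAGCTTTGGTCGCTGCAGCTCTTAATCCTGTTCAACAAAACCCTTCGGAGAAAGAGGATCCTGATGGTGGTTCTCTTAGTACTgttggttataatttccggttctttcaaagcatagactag

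Each of the 6 printed regions was 276 bp long. A GATA-type site was taken as GATA with A or T before it and A or G after it, on either strand. The printed stretches held 1 site in *dos-3* (TTATCA at base 158, counted from the 5′ end) and 1 in *pks-1* (TTATCT at base 83, in the intron between 2 coding exons). The other 4 held 0. The stretch of *H03A11.2* repeats itself with a period of 108 bp at 97.6% identity, and the 51 bases around its summit occur 16 times in the genome, all 16 inside this gene. A read that lies wholly within bases shared by several copies cannot be tied to 1 copy. How such reads were handled is not known, so the height of that peak is uncertain.

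Exonic peaks made up a smaller share at scores of 830 or more than below. Among the 117695 unmerged peaks of the ranked list, 27.4% of those with a score under 540 had an exonic summit (n = 114875), as did 27.4% of those from 540 to 829 (n = 2020). The share was 18.7% from 830 to 999 (14.6 to 23.3, n = 332) and 4.70% at the highest possible score of 1000 (2.97 to 7.03, 22 of 468 peaks). Promoter windows held 26.2%, 30.5%, 39.8% and 37.6% of the peaks of these 4 classes. Exonic sequence outside promoter windows made up 21.7% of the genome and promoter windows 26.1%. Over all 2717 merged regions the exonic share was thus close to the share of the sequence, while below and above a score of 830 it lay on either side of it. The interval of the class from 830 to 999 includes the share of the sequence.

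**Figure D1:**
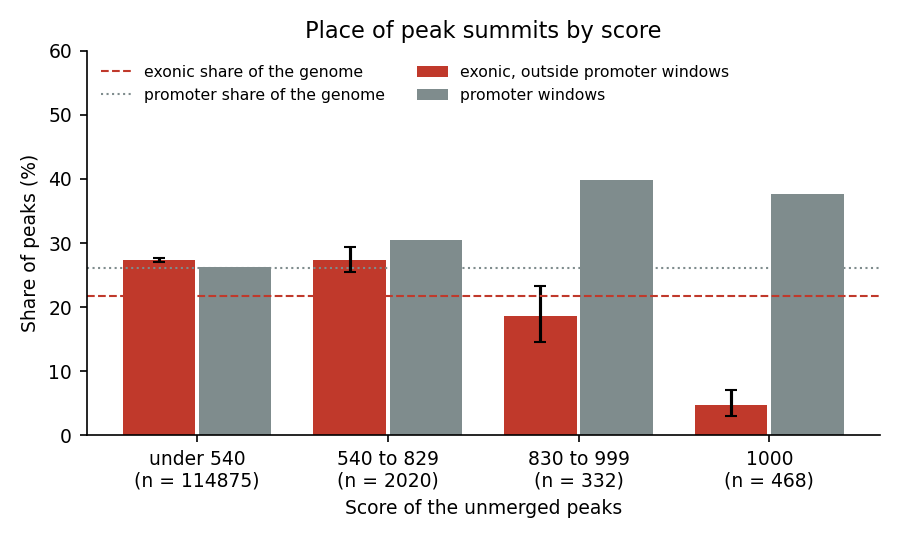
Share of unmerged peaks of the series-level ranked list with an exonic summit (red) or a summit in a promoter window (grey), by peak score; error bars are exact 95% intervals over peaks, and the dashed and dotted lines give the exonic and promoter shares of the genome. The exonic share is 27.4% in the 2 lower classes and 4.70% at a score of 1000.

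Within the 617 regions the signal, the authors' peak height on an unstated scale, was narrow. The median was 60.2 (quartiles 55.3 and 66.3, range 26.2 to 164), against 64.0 in the other 2100 regions (quartiles 57.5 and 76.1, highest 3122.5). Of the exonic regions 533 (86.4%) lay from 50 to 80, and 6 (0.972%) exceeded 100, against 248 (11.8%) of the other regions. A score of 830 or more was reached by 82 exonic regions (13.3%, 10.7 to 16.2), against 702 of the other regions (33.4%, 31.4 to 35.5) and 28.9% of all regions. A score of 1000 was reached by 22 (3.57%) exonic regions and by 434 (20.7%) of the other regions. At the lower end, the members nearest to the limit were in *F16H6.3*, *ZC250.2*, *soc-2*, *W03F11.4* and *tut-2*, with a score of 540 and signals from 41.8 to 56.9. The nearest exonic peaks outside it were in *srbc-63*, *Y18D10A.23*, *nra-4*, *lmd-3* and *sel-11*, with a score of 539 and signals from 46.4 to 62.1. The signals on both sides of the limit overlap.

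The 6 regions above a signal of 100 were those of *C34C12.2*, *dos-3*, *pks-1*, *lelo-2*, *H03A11.2* and *tos-1*. The strongest, at III:3456303-3456578 (ce11) with a signal of 164, lay in the first exon of *C34C12.2*, a 5′ UTR exon of 2829 bp, and 2096 bp from the nearest transcript start. It ranked 90 by signal among all 2717 regions, so that 89 regions outside the exonic class were higher. Some of those can still lie in exons, since promoter windows were assigned first. The region of *dos-3* (signal 153) lay in the last of 11 exons and that of *pks-1* (signal 132) in exon 22 of 30, 15174 bp from a transcript start. The region of *lelo-2* (III:1419812-1420087, signal 107) lay in the 3′ UTR.

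The other hosts among the 20 strongest regions were *cyc-1* (cytochrome c1 of the respiratory chain, signal 96.7), *him-4* (96.4), *fubl-3* (92.5), *tba-1* (an alpha tubulin, 88.1), *kel-20* (87.3), *lmd-2* (85.7), *unc-52* (84.8), *C42D8.9* (84.7), *Y8A9A.2* (84.7), *R06C1.6* (84.2), *try-1* (a trypsin-like protease, 83.3), *ZC123.1* (83.1) and *F57G12.1* (83.1). Of the 20, 14 had the summit in coding sequence, 3 in a 3′ UTR, 1 in a 5′ UTR and 2 in an exon of a non-coding transcript. Those last 2 were both in *tos-1*, a gene named as a target of splicing factors.

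Presence in the replicates depended on the depth of the list that was asked. At any rank, 96.4% of the exonic regions were met by a peak of replicate 1 (at least 1 bp), 96.1% by one of replicate 2 and 92.5% by both. These ranked lists are long: they cover 20.4% and 17.9% of the exonic bases outside promoter windows in replicates 1 and 2. At a score of 540 or more in the replicate's own list, 37 exonic regions (5.997%, 4.26 to 8.17) were met in replicate 1, against 449 (21.4%) of the other regions and 17.9% of all regions. In replicate 2 they were also 37 (5.997%), against 397 (18.9%) of the other regions and 15.97% of all. Both replicates met 3 exonic regions (0.486%, 0.100 to 1.41), against 225 of the other regions (10.7%, 9.42 to 12.1) and 8.39% of all. Neither met 546 exonic regions (88.5%), against 1479 (70.4%) of the others.

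The 3 regions met in both replicates were in *C34C12.2*, *dos-3* and *tos-1*. That of *C34C12.2* had a height of 71.8 in replicate 1 and 94.96 in replicate 2, with a score of 1000 in both. That of *dos-3* reached 73.997 in replicate 1 and 78.4 in replicate 2, also with a score of 1000 in both. That of *tos-1* (V:9342357-9342632, signal 96.6) reached 50.5 in replicate 1 and 47.1 in replicate 2, with scores of 884 and 583. These heights differed between the replicates by less than a factor of 1.5, and all 3 regions were in the thresholded list of the series. The *tos-1* summit was in an exon of a non-coding transcript and in no exon of a coding transcript of that gene.

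Other strong exonic regions were high in 1 replicate. That of *pks-1* had a height of 33.7 (score 224) in replicate 1 and 97.8 (score 1000) in replicate 2. That of *lelo-2* had 40.8 (score 435) in replicate 1 and 69.7 (score 1000) in replicate 2. The higher *tos-1* region (V:9341889-9342164, signal 103) had 60.5 (score 954) in replicate 1 and 42.9 (score 53) in replicate 2. That of *pot-3*, a telomere-binding protein gene, had 8.55 (score 36) in replicate 1 and 82.1 (score 1000) in replicate 2. Of the 22 exonic regions with the top score in the series list, 18 had a score of 540 or more in at least 1 replicate and 4 in neither.

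**Figure D2:**
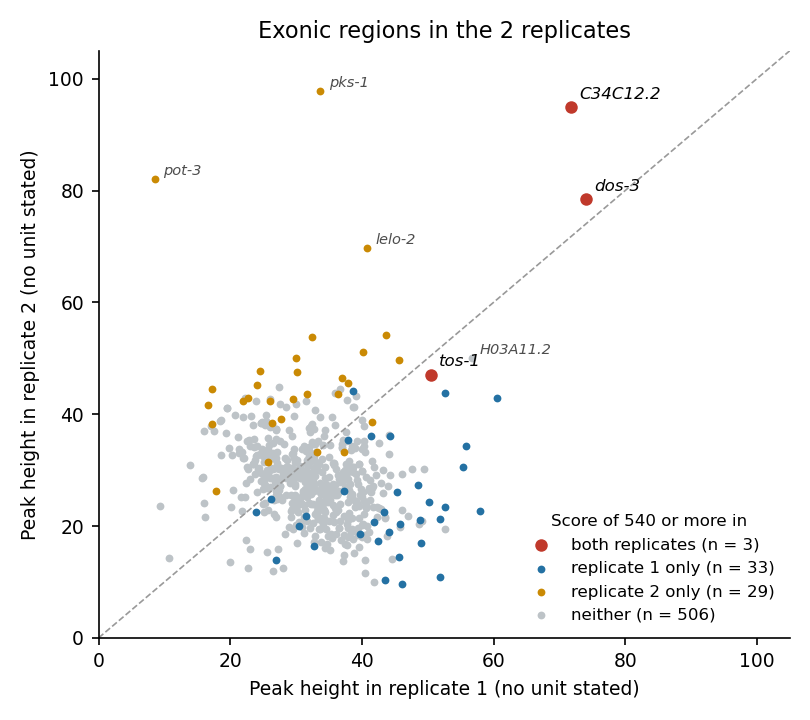
Height of the 571 exonic regions that have a peak of any rank in both replicates, in replicate 1 (horizontal) and replicate 2 (vertical), on the authors' unstated scale; colours give the replicates in which the score is 540 or more, and the dashed line marks equal heights. The points of *C34C12.2* and *dos-3* stand apart at the upper right, and the 506 grey points reach 540 in neither replicate.

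Over the 571 exonic regions with a peak in both ranked lists, the heights of the 2 replicates had a Spearman's rho of -0.26, against 0.19 over 1968 of the other regions. This is a description: regions were selected on a score and height derived from both replicates together, which by itself favours pairs in which a low value is offset by a high one, and its part in the value was not tested. Median heights were 32.8 in replicate 1 and 28.5 in replicate 2 in the exonic regions, against 35.0 and 31.5 in the other regions.

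A look-up that does not use the series list was added after seeing the data. The list of replicate 1 at a score of 540 or more held 537 regions, of which 50 were exonic by the same rule. Of these 50, 4 (8%, 2.22 to 19.2) were met by a peak of 540 or more in replicate 2, against 228 of 487 other regions (46.8%). The list of replicate 2 held 482 regions, 46 of them exonic. Of these, 4 (8.70%, 2.42 to 20.8) were met in replicate 1, against 228 of 436 other regions (52.3%). The genes met in either direction were *C34C12.2*, *dos-3* and *tos-1*, with *hsp-1*, an Hsp70 chaperone gene, from replicate 1 and *rsa-2*, a centrosome protein gene, from replicate 2. Both directions count overlaps between the same 2 lists, and the series list was made from the same replicates, so that these shares are given with no test and add no independent support. The exonic regions were lower in these lists too, with a median height of 44.1 against 55.8 in replicate 1 and 43.6 against 52.7 in replicate 2, and the part of height in the difference was not tested.

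Most exonic summits fell inside the code of a protein. Coding sequence held 563 of the 617 (91.2%, 88.7 to 93.4), against 87.3% of all exonic sequence outside promoter windows, sampled each 50 bp. The 3′ UTRs held 40 (6.48%, 4.67 to 8.72, against 11.1% of the sequence), 5′ UTRs 7 (1.13%, against 1.32%) and exons of non-coding transcripts of coding genes 7 (1.13%, against 0.305%), 5 of these 7 in *tos-1*. Internal exons held 430 regions (69.7%, 65.9 to 73.3, against 73.1% of the sequence), last exons 148 (24.0%, against 23.1%), first exons 31 (5.02%, against 3.32%) and genes of a single exon 8 (1.30%, against 0.453%). Along the spliced transcript the median place was 0.536 of its length, against 0.536 in all exonic sequence.

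Exonic regions lay in longer exons and farther from splice sites than exonic sequence at large. The median exon length was 441 bp (quartiles 250 and 790), against 329 bp (188 and 601) over all exonic positions. Exons of over 800 bp held 150 regions (24.3%), against 15.8% of the sequence, and those of at most 100 bp held 11 (1.78%), against 5.34%. The median distance to the nearest splice site at either end of the exon was 115 bp, against 81 bp. Of the summits, 34.4% were within 75 bp of one, against 47.7% of positions. The outer ends of first and last exons were not counted, and genes of a single exon have no such distance. A score of 830 or more was reached by 38 of 148 regions in last exons (25.7%, 18.9 to 33.5), against 40 of 430 in internal exons (9.30%, 6.73 to 12.5). First exons had 4 of 31 (12.9%, 3.63 to 29.8) and single exons 0 of 8, which allows a share of up to 36.9% by the exact interval, and both of these intervals overlap that of last exons. Of the regions in last exons, 5 were in 1 exon of *tos-1*, 3 of them at 830 or more. The intervals treat all regions as separate.

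**Figure D3:**
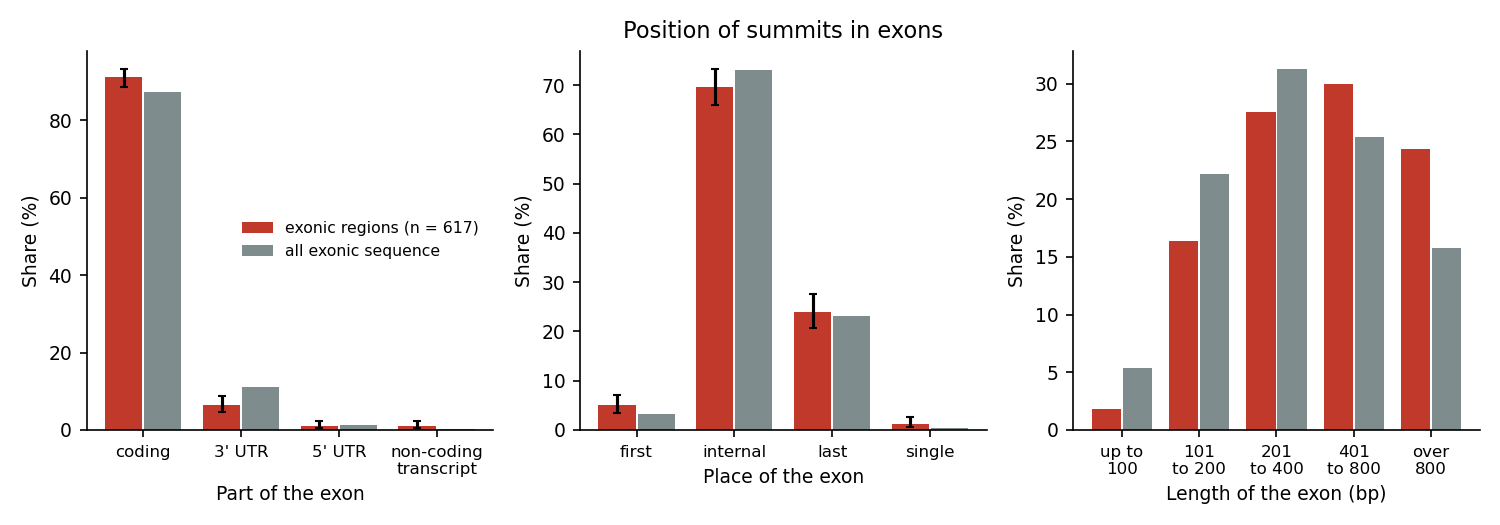
Share of the 617 exonic regions (red, with exact 95% intervals in the left and middle panels) and of all exonic sequence outside promoter windows (grey), by the part of the exon that holds the position, the place of the exon in its transcript and the length of the exon. Coding sequence holds 91.2% of the summits and 87.3% of the sequence, and exons over 800 bp hold 24.3% and 15.8%.

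GC content was higher around the exonic summits than around exonic positions at large. The sequence within 75 bp of the summit had a median GC of 46.4% (quartiles 41.7 and 50.99), against 39.1% (35.1 and 43.7) around all exonic positions. These windows can run past the exon into other sequence. More of the exonic positions (47.7%) than of the summits (34.4%) were within 75 bp of a splice site. The part of this in the GC gap was not tested. The gap held for positions in coding sequence (47.0% against 40.4%) and in 3′ UTRs (39.1% against 31.8%). Windows with a GC of 50% or more made up 31.0% of the exonic regions, against 6.79% of all exonic sequence, and windows under 40% made up 16.9%, against 54.3%. Within the same gene, 485 regions had exonic sequence 300 bp from the summit, with a median GC of 42.4% there against 47.0% at the summit, and the summit was higher in 354 (72.99%). By distance, mean GC was 48% in the 25 bp next to the summit and 37.98% near 600 bp from it towards higher coordinates. These means take in all sequence, exonic or not, so the fall is not one within exons. Where the same gene had exonic sequence 600 bp from the summit, median GC was 42.1% there against 46.4% at the summit. The summit was higher in 71.8% of these regions.

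This level was shared with the other regions. A GC of 50% or more was found in 191 of 617 exonic regions (31.0%, 27.3 to 34.8), against 663 of 2100 other regions (31.6%). The two-sided exact test by Fisher's method did not pass (adjusted p = 0.805 over 4 tests), with an odds ratio of 0.972 (0.796 to 1.18), and the median was 46.4% in both. The direction of this odds ratio turned under 6 alternatives, and with the list of replicate 1 alone 50% of the 50 exonic regions, against 32.9% of the others, had such a GC (adjusted p = 0.0377 in the exact test, odds ratio 2.04). The median signal of the exonic regions was higher in each successive GC class, with 58.6 in windows under 40%, 59.5 from 40% to 45%, 60.2 from 45% to 50%, 60.9 from 50% to 55% and 63.3 at 55% or more, a description with no test. The ratio of observed to expected CG steps had a median of 0.899 in the exonic regions and 0.899 in all exonic sequence.

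**Figure D4:**
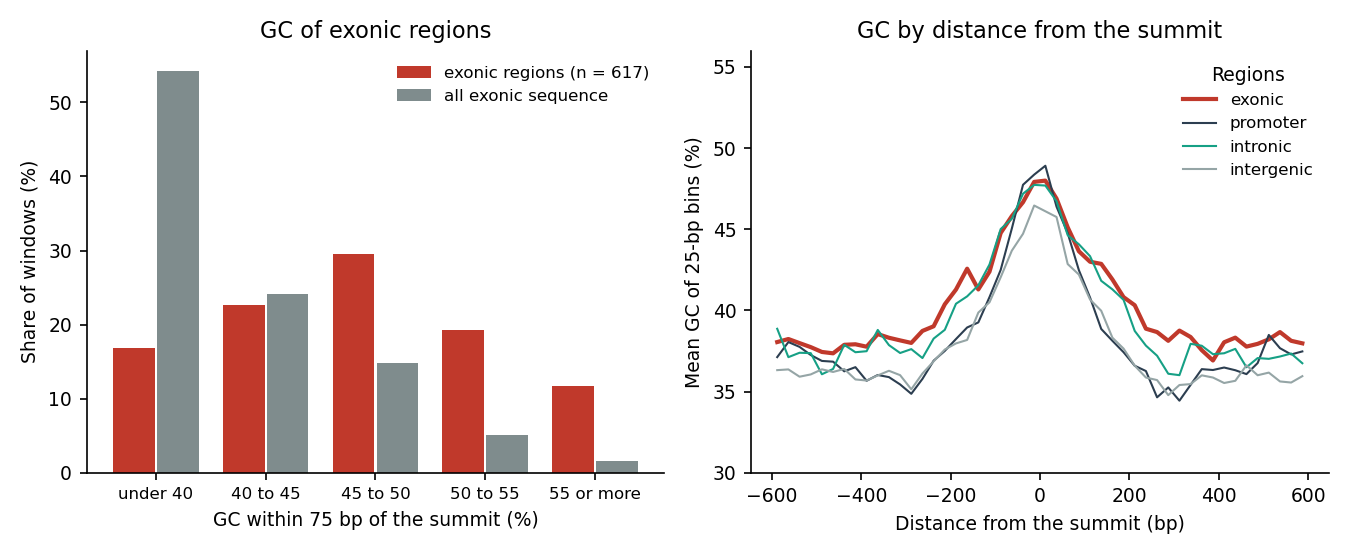
Left, share of the 617 exonic regions (red) and of all exonic sequence (grey) by GC within 75 bp of the summit; right, mean GC of 25-bp bins by distance from the summit for exonic (red), promoter, intronic and intergenic regions. Windows under 40% GC are 16.9% of the exonic regions and 54.3% of exonic sequence, and all 4 classes of regions peak at the summit. Windows of exonic sequence are centred on exonic positions, and all windows can run past the exon.

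The GATA-type sites were more frequent in exonic regions than in the other regions, and less frequent than around exonic positions at large. Of the 617 exonic regions 134 (21.7%, 18.5 to 25.2) had a site at most 75 bp from the summit, against 349 of 2100 other regions (16.6%). This passed Fisher's exact test, two-sided (adjusted p = 0.00810 over 4 tests), with an odds ratio of 1.39 (1.10 to 1.75). Windows of the same length around all exonic positions had a site in 28.5% of cases. Both kinds of window can run past the exon, as at *pks-1*, where the site lies in an intron. The comparison is thus not one of exon sequence alone. The same share was not computed for promoter, intronic and intergenic sequence. The test therefore cannot separate a trait of the regions from the sequence of their class. By GC, exonic regions and exonic sequence were close in the 3 lower classes, at 31.7% against 34.0% under 40% GC, 28.6% against 26.2% from 40% to 45% and 19.8% against 19.4% from 45% to 50%. Exonic regions were higher from 50% to 55% GC, at 20.2% against 12.9%, and lower at 55% or more, at 1.39% (1 of 72 regions) against 6.68%. Of the 20 strongest exonic regions 3 had a site, those of *dos-3*, *pks-1* and *F57G12.1*, and of the 22 with the top score 2. The difference from the other regions did not pass the exact test among regions with a score of 830 or more (18.3% against 13.7%, adjusted p = 0.326), with the other series-level ranked list (19.1% against 16.8%, adjusted p = 0.345) or in windows of 50 bp on either side (13.0% against 11.0%, adjusted p = 0.229).

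Genes of small structural RNAs lay near few exonic regions, as they did near little of all exonic sequence. A tRNA, snoRNA or snRNA gene lay within 150 bp of 3 exonic summits (0.486%, 0.100 to 1.41), against 0.229% of all exonic sequence and 214 of the other regions (10.2%). The difference from the other regions passed Fisher's exact test, two-sided (adjusted p = 1.21e-20), with an odds ratio of 0.0431 (0.00878 to 0.128). The 3 were in *unc-22*, the gene of the giant muscle protein twitchin (IV:12005432-12005707, signal 76.3), *W02G9.3* (75.4) and *glr-2*, a glutamate receptor gene (74.5). The rule largely fixed this outcome, since exons of coding genes outside promoter windows seldom lie near genes of small RNAs, and the test is no evidence about EGL-18 in exons. Beside this, CGCGCA (either strand) was found at 12 exonic summits (1.94%), against 9.67% of the other regions and 1.09% of exonic sequence. ACGCAG was found at 18 (2.92%), against 11.24% and 2.68%. Both sequences were chosen after their values in these data were known.

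By chromosome, X held 114 exonic regions (18.5%, 15.5 to 21.8), against 465 of the other regions (22.1%). The difference did not pass Fisher's exact test, two-sided (adjusted p = 0.0674), with an odds ratio of 0.797 (0.629 to 1.005), and 16.3% of exonic sequence lay on X. Against intronic and intergenic regions together the share on X was lower in exonic regions (26.2% in these others, adjusted p = 0.000476 in the exact test, odds ratio 0.638). Taken apart, the difference passed against intergenic regions (29.9%, adjusted p = 3.1e-06 in the exact test, odds ratio 0.531) and not against intronic regions (21.0%, adjusted p = 0.433, odds ratio 0.855). Against promoter regions alone the direction turned (16.6%, adjusted p = 0.368 in the exact test, odds ratio 1.14). The share of promoter, intronic and intergenic sequence that lies on X was not computed. These tests therefore cannot separate a trait of the regions from the placing of each kind of sequence on the chromosomes. The other chromosomes held from 13.3% (IV) to 19.1% (V) of the exonic regions, against 15.5% and 21.4% of exonic sequence.

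Few exonic regions lay in repeats. Summits in windows that were mostly masked as repeats numbered 13 (2.11%), against 373 (17.8%) of the other regions and 5.34% of exonic sequence. The 51 bases at the summit occurred more than once in the genome for 6 regions (0.972%), against 179 (8.52%) of the other regions. Besides *H03A11.2*, these were in *C33C12.11* (5 copies), *ZC178.2* (4) and *col-135*, *klp-18* and *col-73* (2 each). Of the 82 exonic regions with a score of 830 or more, 5 were not in the thresholded list of the series, those of *H03A11.2*, *Y8A9A.2*, *pot-3*, *mdt-29* and *ZC178.2*, and 2 of these 5 were among the repeated ones.

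The 617 regions lay in 577 host genes, 3.14% of the 18378 protein-coding genes with exonic sequence outside promoter windows. There were 543 genes with 1 region, 30 with 2 and 4 with 3 or more, and 1 region was in 2 overlapping genes, *twk-49* and *T28D9.1*. The gene *tos-1* had 5 regions, all in a single exon of 4558 bp of a non-coding transcript, with signals from 62.4 to 103 and 3 of the 5 at a score of 830 or more. The genes with 3 were *clec-78*, a C-type lectin gene (signals 58.6 to 62.01), *sop-3*, which encodes a subunit of the Mediator complex (49.99 to 60.6), and *chd-7*, a chromatin remodeller gene (49.5 to 60.1). The strongest genes with 2 were *him-4*, *unc-52*, *Y8A9A.2*, *gpd-3*, a glycolytic enzyme gene, *unc-22* and *K06A9.1*. A promoter region of the series was also present at 61 of the 577 host genes (10.6%), among them *tos-1*, *cgh-1*, *pot-3*, *zyg-11* and *mbk-2*, against 901 of all 18378 (4.90%). The genes were not matched for length or number of transcript starts, and the difference was not tested.

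Groups of host genes are described by their counts beside their share of exonic sequence outside promoter windows, with no test. Any list with 3 regions or fewer, here or below, has too few to read against its share. Of 176 collagen genes, which form the cuticle and basement membranes, 11 had a region each, 1.78% of the exonic regions against 0.679% of exonic sequence. The strongest were *col-135* (signal 74.8), *col-129* (72.1), *col-103* (70.7) and *col-183* (70.3), and 8 of the 11 were in the last exon. The copies that *col-135* and *col-73* share with another place make the position of their peaks uncertain. Of 24 genes of basement membrane and matrix, 6 had 8 regions (1.30%, against 0.971% of the sequence), 2 of them the *unc-52* regions that the muscle list also holds. Those of *him-4* and *unc-52* were the strongest, followed by *let-805*, a receptor that anchors the epidermis (73.04), and *lam-1*, a laminin subunit (59.5). Both *him-4* regions lay in internal exons, 13 and 34 of 62.

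The muscle list had 6 regions in 4 of 35 genes (0.972%, against 0.922% of the sequence): *unc-52* and *unc-22* with 2 each, *dim-1* (67.9) and the myosin heavy chain gene *unc-54* (67.1). Ribosomal protein genes had 2 regions (0.324%, against 0.0641% of the sequence), in *rpl-13* (signal 73.7) and *rpl-37* (61.1). Translation factors had 3 (0.486%, against 0.131%), in *eif-2alpha* (80.1, with a score of 1000) and 2 in *eif-2A*. Chaperones had 5 (0.810%, against 0.277%), in *dnj-29* (70.8) and 2 each in *hsp-110* and *hsp-1*. The germline list had 3 (0.486%, against 0.314%), in *cgh-1*, an RNA helicase gene with its region in the 3′ UTR (82.9), and 2 in *glh-2*. The vitellogenin gene *vit-2* had 1 (36.1; 0.162%, against 0.132% for the list). Proteasome, histone, actin and sperm lists, of 33, 80, 5 and 82 genes, had 0, with 0.110%, 0.0308%, 0.0262% and 0.161% of exonic sequence. At those shares of sequence fewer than 1 region per list would fall there by length alone, so 0 cannot be told from the background. The sperm list does not hold every gene named for sperm: *spch-3* (69.4, score 895) and *ssq-1* (63.9, score 672), found after their values were seen, each had a region.

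The lists nearest to what EGL-18 is known to do had from 1 to 3 regions each, too few to read against their shares of sequence. The GATA list had 1 region (0.162%, against 0.0563% of the sequence), in *egl-27* (48.6), whose product carries a GATA-type zinc finger, and the list of seam cell and Wnt genes had 1 (0.162%, against 0.254%), in the Wnt receptor gene *lin-17* (55.1). Both had a score of 541, next to the limit. The heterochronic genes, which set the timing of larval stages, had 3 regions in 3 of 18 genes (0.486%, against 0.232%): *lin-29*, a zinc finger factor of the larval-to-adult switch (II:11917650-11917925, 3′ UTR, signal 78.8, score 1000), *ain-1* (61.3) and *lin-66* (57.2, 3′ UTR). In replicates 1 and 2 the *lin-29* region had heights of 37.0 (score 229) and 46.4 (score 797). The vulval list had 3 in 3 of 27 genes (0.486%, against 0.2496%): *lin-15A* (75.2), the Notch receptor gene *lin-12* (72.5) and *vab-23* (57.8, 3′ UTR).

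Among gene families of sensing and regulation, nuclear hormone receptors had 8 regions in 8 of 273 genes (1.30%, against 1.38% of the sequence), led by *nhr-47* (78.2), *nhr-23* (65.5), *nhr-116* (63.8) and *nhr-262* (62.9). Homeobox and helix-loop-helix genes had 5 (0.810%, against 0.369%), all in *ceh* homeobox genes, led by *ceh-60* (65.4) and *ceh-91* (62.6). Genes with names of the chemoreceptor form had 9 of 1171 (1.46%, against 3.95% of the sequence), led by *srj-19* (75.7) and *srj-54* (66.2). This list was read from name prefixes and includes *srp-2*, *srlf-1* and *srap-1*, which are not named as chemoreceptors. F-box and MATH genes had 6 (0.972%, against 1.49%), led by *fbxa-199* (77.8) and *fbxa-75* (70.4). Splicing genes had 2 regions (0.324%, against 0.196%), in *rsp-4* (70.2) and *rsp-8* (34.6, 3′ UTR). Genes of the transcription machinery had 3 (0.486%, against 0.319%), in *mdt-29* (74.1), *ama-1* (59.2) and *gtf-2A2* (55.1), and histone modifiers 2 (0.324%, against 0.471%), in *set-29* (60.8) and *set-16* (54.9). By name class, C-type lectins (*clec*) had the most, 12 regions in 9 genes (1.94%, against 0.922%), 3 of them in *clec-78*.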

How the data were processed

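Peak lists on assembly ce11 were used for 2 ChIP-seq samples of 1 group. Per the labels, chromatin was sonicated to 200 to 800 bp. No source used here gives the aligner, the peak caller or their settings. The signal deposited by the authors is the height of a peak on a scale that is not stated. The score deposited by the authors is minus 125 times log2 of the global IDR, capped at 1000, and 99.99% of the scores lay within 1 of the value from the deposited −log10 IDR column. The series-level list derives from both replicates, per the deposited descriptions, and its inputs were not tied to a replicate. Peak lists hold no read counts, so depth is unknown, and intervals (exact Clopper-Pearson, 95%) cover the number of regions only. The labels call the samples biological replicates and do not say whether they came from separate cultures.

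Genes were those of Ensembl release 115 and sequence that of RefSeq's WBcel235 assembly, in which 99.9% of 31805 annotated start codons read ATG. Where a summit lay in exons of several transcripts, the coding transcript with the longest coding sequence was described. All exonic sequence was sampled each 50 bp outside promoter windows. Values given for windows, such as GC and sites, were of genomic sequence within 75 bp of these positions, which could run past the exon. The 4 shares tested between exonic and other regions used two-sided Fisher's exact tests with Benjamini-Hochberg adjustment and a threshold of 0.05. The code of the exact test was checked on simulated independent counts. That check does not cover regions that share a gene or effects of the size found here. The members, gene lists and tests were chosen with earlier results of these data known. Named genes were hosts of the 20 strongest regions, of regions in both replicates, of the 5 on either side of the score limit, of up to 4 regions per list, and genes with several regions, up to 10; others were named after their values were seen. Alternatives changed score, promoter window, merging, list, windows and replicate. The software was scipy 1.17.1, pandas 2.3.3, numpy 2.4.6 and matplotlib 3.10.9 under Python 3.11.15.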

Additional observations from a re-analysis of the deposited data

How the results depend on the processing

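Of 84 alternatives, 53 left the result as it was, in direction and in passing the test, within 1.5 times a count or within the interval of a share. These 84 include 3 for each direction of the look-up between replicates, sorted by an exact test that is not given as a result. Of these, 2 (replicate 1 in replicate 2) and 3 (replicate 2 in replicate 1) were the same, which adds no independent support. The low share at small RNA genes, which the rule largely fixed, did so in 10 of 10. The number of exonic regions was 82 at a score of 830 and 22 at 1000, and from 46 to 50 with the list of 1 replicate, which holds fewer peaks. Their share of all regions was 10.5% at 830 and 4.82% at 1000, 26.5% with promoters cut to 500 bp before and 100 bp after the start, 15.9% with 2000 bp before and 500 bp after, 20.8% with coding sequence only, and from 9.31% to 9.54% with 1 replicate. The share in both replicates was 92.5% with replicate peaks of any score and 3.66% of the regions with a score of 830 or more. Coding sequence held 82.9% at 830 and from 84.8% to 88.0% with 1 replicate.

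The odds ratio of GATA sites no longer passed the exact test at 830 (1.41), with the other ranked list (1.17), in windows of 50 bp (1.21) or with 1 replicate (1.30 to 1.92). Among regions of 40% to 50% GC, an alternative added after seeing the data, it was 1.59 and passed. The odds ratio of high GC was 1.12 against intronic and intergenic regions, 1.09 with the narrower promoter window, 1.01 with the other ranked list, 1.16 in windows of 150 bp, 1.02 without regions at small RNA genes, and from 0.868 to 2.04 with 1 replicate. That of X was 1.14 against promoter regions, and passed against intronic and intergenic regions (0.638) and with the narrower window (0.767). The odds ratio of regions of replicate 1 met in replicate 2, a description added after seeing the data, was 0.224 at a score of 830, where 8 exonic regions were left. The cause of the other changes was not tested.

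No paired analysis was possible because there is 1 group. Depth is unknown, so for a region met in 1 replicate, absence and lower depth in the other cannot be told apart.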
